A study of Mus musculus with 4 samples.

Results

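Haematopoietic cytokine receptors were described as 9 genes, chosen by name as the rows of the deposited differential expression table for Kit, Csf2rb, Csf2rb2, Csf2ra, Il3ra, Il6st, Ifngr1, Flt3 and Csf1r. All 9 were found among the 23234 genes of the table. RNA sequencing was carried out on mouse extensively self-renewing erythroblasts (ESREs), immature red cell precursors of fetal origin that can be expanded in culture. The proliferating knockdown cells carried a short hairpin RNA against Setd8, a histone methyltransferase gene. The maturing control cells carried a non-targeting hairpin and had spent 6 h in maturation medium, and the proliferating control cells carried that non-targeting hairpin without the change of medium. Each group held 1 library. A group of maturing knockdown cells is named in the labels and was not analysed here. The labels do not say how many cultures or hairpins a sample stands for, nor give an age or strain.

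These receptors carry the signals of soluble growth factors across the membrane of blood cells. Kit, Flt3 and Csf1r are related receptor tyrosine kinases, which bind stem cell factor, Flt3 ligand and macrophage colony-stimulating factor and phosphorylate their own tails. The receptors for interleukin 3, interleukin 5 and GM-CSF instead pair a ligand-specific alpha chain (Il3ra, Il5ra or Csf2ra) with a shared beta chain that has no kinase of its own and works through bound Janus kinases. Mice carry the shared beta chain Csf2rb and a close copy, Csf2rb2, which serves interleukin 3 only. Il6st, also called gp130, is the shared signalling chain of the interleukin 6 family, and Ifngr1 is the ligand-binding chain of the interferon-gamma receptor. Kit is needed for the expansion of red cell progenitors and is lost as they mature, whereas mast cells keep it.

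Both beta chain genes had the highest levels of all members in each library and were called higher in the proliferating knockdown than in the proliferating control. Kit, next in level, also had its highest value there, but its test failed. Levels are in FPKM, a count of fragments made relative to transcript length and sequencing depth, so that genes can be compared with each other. In each library the order began with Csf2rb2, Csf2rb, Kit and Csf2ra, followed by Ifngr1 and Csf1r. Il3ra then stood above Il6st in the proliferating knockdown and below it in both control libraries, and Flt3 was last in all 3 libraries. With 1 library per group no spread between replicates is known, so no statement can be made on which neighbours in this order differ. At least 1 FPKM was reached by 5 members in the proliferating knockdown and by 4 in each control library. The fifth in the knockdown was Ifngr1. In bulk RNA a change in the share of a cell type and a change in RNA per cell cannot be told apart.

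**Figure D1:**
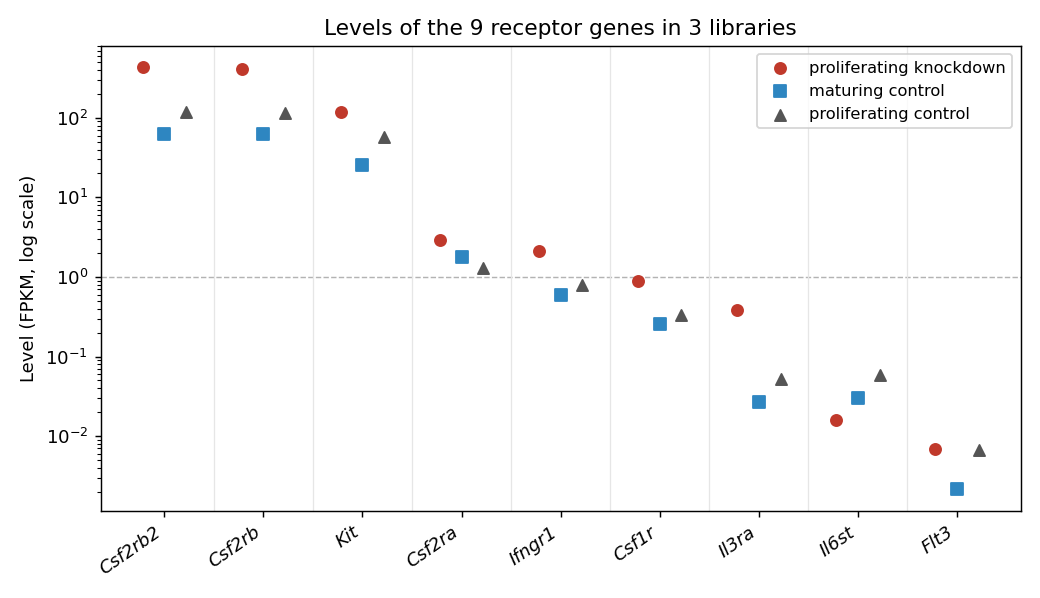
FPKM on a log axis for each receptor gene in the proliferating knockdown, the maturing control and the proliferating control, 1 point per library, with a dashed line at 1 FPKM. Csf2rb2, Csf2rb and Kit lie above 25 FPKM in all 3 libraries, and 8 of the 9 genes have their highest point in the knockdown, Il6st being the exception. The 8 include Flt3, which is not taken as different between libraries.

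Setd8, the targeted gene, stood at 9.28 FPKM in the proliferating knockdown, 25.9 FPKM in the maturing control and 25.1 FPKM in the proliferating control, and was called lower in the knockdown (q = 0.0122) by the authors' deposited table. Red cell markers were present in all libraries, with a summed level over 14 rows of 752 FPKM in the knockdown, 3394 FPKM in the maturing control and 2094 FPKM in the proliferating control. For the knockdown against the proliferating control 4 of the 14 had a call as lower and 0 as higher in the authors' deposited table, namely Alas2 (haem synthesis), Spna1 (spectrin), a row that names the globin genes Hba-a1 and Hba-a2 together and a row that names Hbb-b1 and Hbb-b2 together. The separate rows of Hba-a2 and Hbb-b2 were not called. For the maturing control against the proliferating control, 1 of 14 was called higher there, the anion exchanger Slc4a1. The summed level of 13 mast cell and basophil markers was 502 FPKM in the knockdown, 39.2 FPKM in the maturing control and 72.5 FPKM in the proliferating control. Hdc was the largest part, at 277 FPKM in the knockdown, 28.7 FPKM in the maturing control and 42.5 FPKM in the proliferating control. For the knockdown against the proliferating control, 8 of 11 tested mast cell markers had a call as higher and 1 as lower in the authors' deposited table, and for the maturing control 4 of 11 were called lower. Over all tested genes that table called 5.81% higher and 3.24% lower for the knockdown, and 0.584% higher and 1.17% lower for the maturing control. The knockdown call as lower was Gzmb, at 0.00592 FPKM there, 1.14 FPKM in the maturing control and 1.43 FPKM in the proliferating control. Cpa3 and Fcer1a were tested and not called for the knockdown. The tryptase gene Tpsab1 was at 40.4 FPKM in the knockdown, 0.0662 FPKM in the maturing control and 0.565 FPKM in the proliferating control. Ms4a2, the IgE receptor beta chain, was at 99.3 FPKM in the knockdown, 2.42 FPKM in the maturing control and 7.65 FPKM in the proliferating control. The mast cell proteases Cma1 and Tpsb2 were also called higher in the knockdown. Mast cells carry Kit and the shared beta chain. Most of these marker values moved with the members described below, Gzmb being an exception, and their part in the results was not tested. Of those 13 markers, 1 was listed at 0 in the knockdown, 0 in the maturing control and 2 in the proliferating control. The 8 megakaryocyte markers summed to 42.5 FPKM in the knockdown, 9.31 FPKM in the maturing control and 16.3 FPKM in the proliferating control, and 4 of 5 tested were called higher in the knockdown in the authors' deposited table, Rab27b, Itga2b and Gp9 among them. Pf4, also called, was not tested between the control libraries and entered the tested set through its knockdown level. Granulocyte, lymphoid and macrophage markers were near the bottom of the scale. The 9 granulocyte markers summed to at most 0.0797 FPKM and the 7 lymphoid markers to at most 0.0375 FPKM in any library. The 11 macrophage and monocyte markers, Csf1r among them, summed to 1.59 FPKM in the knockdown, 1.52 FPKM in the maturing control and 1.25 FPKM in the proliferating control. Of these sums Csf1r gave 0.880 FPKM in the knockdown, 0.254 FPKM in the maturing control and 0.328 FPKM in the proliferating control. Cd68 was at 0.377 FPKM in the knockdown, 1.22 FPKM in the maturing control and 0.855 FPKM in the proliferating control. The authors' deposited table called Cd68 lower only for the knockdown against the maturing control. The macrophage gene Emr1 was at or below 0.00369 FPKM in every library, and the lysozyme genes Lyz1 and Lyz2 were listed at 0 throughout. For the knockdown against the proliferating control the authors' deposited table tested 3 of these 11 and called 1 higher, Itgam, and 0 lower. Itgam was at 0.124 FPKM in the knockdown, 0.00475 FPKM in the maturing control and listed at 0 in the proliferating control. It was not tested between the control libraries, so it entered the tested set through its knockdown level.

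The shared beta chain was the most abundant of these receptors. Csf2rb (chromosome 15, 78156420 to 78181431, mm9) was at 406 FPKM in the proliferating knockdown, 62.1 FPKM in the maturing control and 114 FPKM in the proliferating control. Csf2rb2 (chromosome 15, 78112940 to 78136033, mm9) was at 435 FPKM in the proliferating knockdown, 63.4 FPKM in the maturing control and 117 FPKM in the proliferating control. For both, the knockdown library was highest and the maturing control lowest. Csf2rb2 was the gene of rank 41 and Csf2rb of rank 51 by FPKM in the knockdown, where in the proliferating control they had ranks 212 and 215 and in the maturing control ranks 373 and 379. Together they made up 0.495% of all FPKM in the knockdown, 0.0708% in the maturing control and 0.131% in the proliferating control.

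For the knockdown against the proliferating control, the authors' deposited table gave Csf2rb 1.83 on the log2 scale (q = 1.22e-05, where q is the adjusted p), and the deposited statistic implies a standard error of 0.36. Csf2rb2 had 1.90 on the log2 scale (q = 4.66e-06) in the authors' deposited table, with an implied standard error of 0.36. Both genes were thus called higher. The labels name no replicates, so these q-values do not measure the spread between cultures. As fold changes of FPKM these were 3.55 for Csf2rb and 3.72 for Csf2rb2.

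The beta chain genes are neighbours with near-identical coding sequences, so the split of fragments that match both is uncertain. In GENCODE M21 (GRCm38), the coding sequence has 2691 bases in Csf2rb and 2637 in Csf2rb2. Of 2631 aligned bases, 2505 were identical, or 95.2%. The longest stretch without a difference was 242 bases, and 26.0% of all 50-base stretches of the Csf2rb coding sequence were also found in that of Csf2rb2. Over the whole Csf2rb transcript, untranslated parts included, the share was 18.9% for 50-base stretches and 7.16% for 100-base stretches. The 120-base window with the most differences held 22 of them. It is shown because only fragments over such positions tell the genes apart, with differing bases in capitals, 5′ to 3′ on the coding strand.
Csf2rb, coding bases 309 to 428: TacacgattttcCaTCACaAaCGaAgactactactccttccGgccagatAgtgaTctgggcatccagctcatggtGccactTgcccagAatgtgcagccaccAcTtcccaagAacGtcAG
Csf2rb2, coding bases 312 to 431: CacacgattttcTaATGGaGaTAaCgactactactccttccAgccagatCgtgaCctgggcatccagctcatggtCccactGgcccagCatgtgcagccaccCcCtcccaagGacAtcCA
A window of the same length with no difference is shown once for comparison.
Csf2rb and Csf2rb2, coding bases 2083 to 2202: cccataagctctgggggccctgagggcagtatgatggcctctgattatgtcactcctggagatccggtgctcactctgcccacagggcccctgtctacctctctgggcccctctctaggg
A fragment from that window could come from either gene. The Csf2rb2 value was 1.07 times that of Csf2rb in the knockdown, 1.02 times in the maturing control and 1.02 times in the proliferating control. Added together, the pair stood at 841 FPKM in the knockdown, 126 FPKM in the maturing control and 231 FPKM in the proliferating control. The sum was 3.63 times as high in the knockdown as in the proliferating control. It keeps fragments assigned to either gene, and how fragments that match both were treated is unknown.

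The alpha chains, which give the shared beta chain its ligand, were much lower. Csf2ra, the GM-CSF alpha chain (chromosome 19, 61300305 to 61304321, mm9), was at 2.93 FPKM in the proliferating knockdown, 1.80 FPKM in the maturing control and 1.31 FPKM in the proliferating control. It was the 1 member with its lowest value in the proliferating control. Against that library the authors' deposited table gave the knockdown a log2 ratio of 1.16 (q = 0.306), so Csf2ra was not called. Il3ra, the interleukin 3 alpha chain (chromosome 14, 15179009 to 15188004, mm9), was at 0.381 FPKM in the proliferating knockdown, 0.0266 FPKM in the maturing control and 0.0529 FPKM in the proliferating control. The authors' deposited table called Il3ra higher in the knockdown than in the proliferating control, by 2.85 on the log2 scale with an implied standard error of 0.71 (q = 0.00136). Its level stayed below 1 FPKM even in the knockdown. Il5ra, the interleukin 5 alpha chain and no member, was at 1.43 FPKM in the knockdown, 0.0144 FPKM in the maturing control and 0.0409 FPKM in the proliferating control, and was likewise called higher there by the authors' table as deposited. The sum of these 3 alpha chains was 4.74 FPKM in the knockdown, 1.84 FPKM in the maturing control and 1.41 FPKM in the proliferating control. Csf2rb thus stood 139 times as high as Csf2ra in the knockdown, 34.5 times in the maturing control and 87.1 times in the proliferating control.

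Kit (chromosome 5, 75971012 to 76052746, mm9) was at 120.1 FPKM in the proliferating knockdown, 25.5 FPKM in the maturing control and 58.0 FPKM in the proliferating control. The knockdown value was 2.07 times, and the maturing control value 44.0% of, that in the proliferating control. The authors' deposited table marks the test of Kit as failed in all 3 comparisons, so Kit has neither a call nor an error, and it is counted neither as changed nor as unchanged. In the distribution of log2 ratios of FPKM + 1 over 9456 genes at 1 FPKM or more, the knockdown ratio of Kit (1.04) stood above 95.7% of genes, and those of Csf2rb (1.82) and Csf2rb2 (1.89) above 98.6% each. For the maturing control, the ratio of Kit (-1.15) stood above 0.903% of 9191 genes. Kit stood 14.0 times as high as Epor, the erythropoietin receptor gene, in the knockdown, 0.997 times in the maturing control and 3.29 times in the proliferating control.

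**Figure D2:**
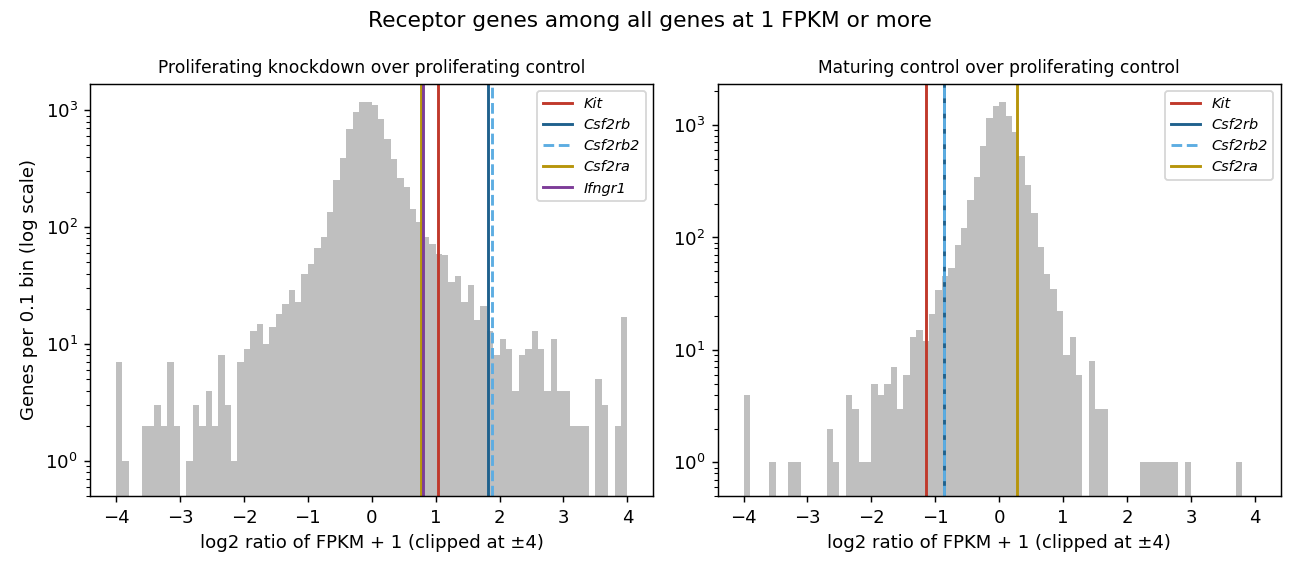
Histograms of the log2 ratio of FPKM + 1 over genes at 1 FPKM or more in either library (counts per 0.1 bin on a log axis, ratios clipped at 4), for the proliferating knockdown over the proliferating control on the left and the maturing control over the proliferating control on the right, with vertical lines at the receptor genes that reached 1 FPKM. Kit, Csf2rb and Csf2rb2 lie in the right tail on the left (1.04, 1.82 and 1.89) and in the left tail on the right (-1.15, -0.87 and -0.87).

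The other kinase receptors of Kit's class were low. Csf1r (chromosome 18, 61265226 to 61290793, mm9) was at 0.880 FPKM in the proliferating knockdown, 0.254 FPKM in the maturing control and 0.328 FPKM in the proliferating control. The authors' deposited table gave Csf1r a log2 ratio of 1.42 (q = 0.107) for the knockdown against the proliferating control, which is not a call. Flt3 (chromosome 5, 148142317 to 148212065, mm9) was at 0.00688 FPKM in the knockdown, 0.00214 FPKM in the maturing control and 0.00660 FPKM in the proliferating control. Once scaled by relative depth, the knockdown and proliferating control values of Flt3 were 3.01 and 2.01 times that of the maturing control, close to whole steps of the lowest value. Flt3 was not tested in the authors' deposited table and is not taken as detected or as different between libraries.

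Of the chains for interleukin 6 family ligands and for interferon gamma, Ifngr1 stood above Il6st in every library. Il6st (chromosome 13, 113254278 to 113297068, mm9) was at 0.0160 FPKM in the proliferating knockdown, 0.0299 FPKM in the maturing control and 0.0588 FPKM in the proliferating control, and was not tested in the authors' deposited table. It was the 1 member whose lowest value was in the knockdown. Ifngr1 (chromosome 10, 19311764 to 19330031, mm9) was at 2.12 FPKM in the proliferating knockdown, 0.589 FPKM in the maturing control and 0.786 FPKM in the proliferating control. The authors' deposited table gave Ifngr1 a log2 ratio of 1.43 (q = 0.106) for the knockdown against the proliferating control, so it was not called. Its partner Ifngr2, the chain that completes the interferon-gamma receptor, was at 9.36 FPKM in the knockdown, 3.73 FPKM in the maturing control and 6.08 FPKM in the proliferating control, with no call in any comparison of the authors' deposited table.

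In the knockdown against the proliferating control, the authors' deposited table tested 6 of the 9 members and gave 3 higher and 0 lower calls, namely Csf2rb, Csf2rb2 and Il3ra. Over all genes it tested 11665 and called 9.05% changed, 5.81% higher and 3.24% lower. Il3ra was not tested between the control libraries, so it entered the tested sets of both knockdown comparisons through its knockdown level. All 6 tested members had a higher value in the knockdown and an unadjusted p under 0.05 in the authors' deposited table. The share of all tested genes at that unadjusted threshold was not computed, so this count is not read as particular to the members. The median log2 ratio of FPKM + 1 over the 9 members was 0.76, beside -0.05 over the 9611 genes at 1 FPKM or more in a library, a level that 4 of these 9 do not reach. By size alone, 3 members (Kit, Csf2rb and Csf2rb2) had a log2 ratio of FPKM + 1 of 1 or more, a size reached by 7.10% of 9456 genes (4.45% higher and 2.64% lower).

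**Figure D3:**
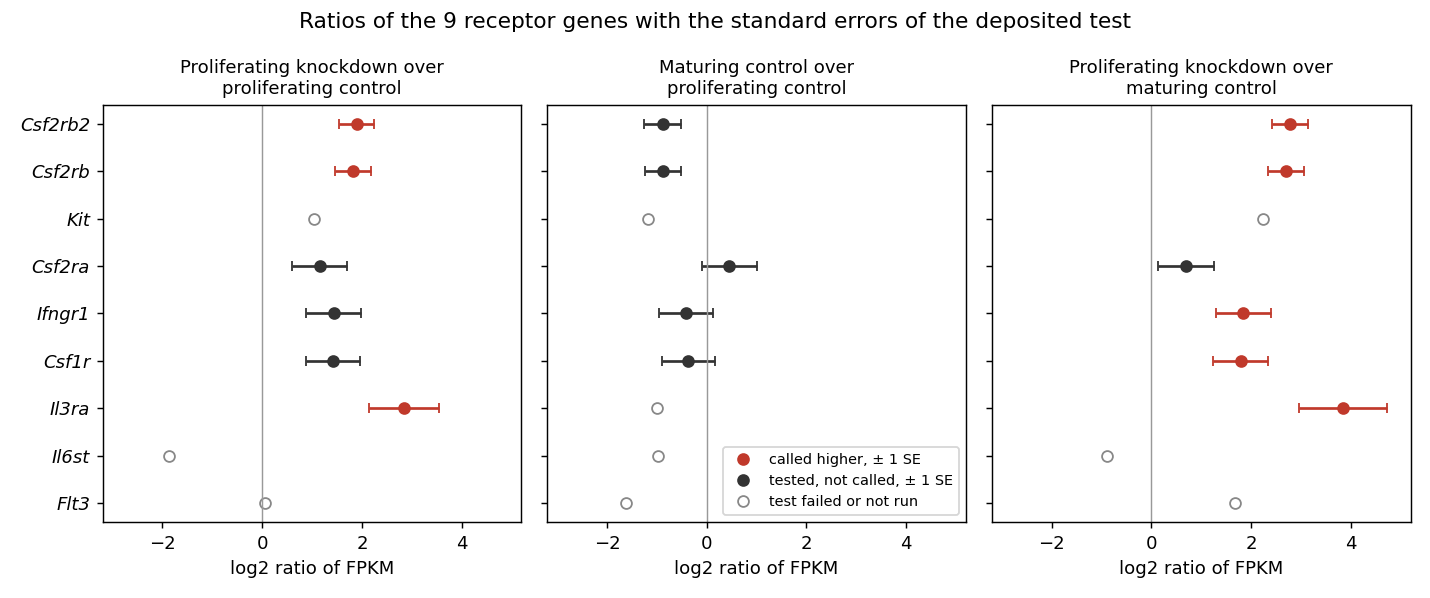
Log2 ratios of FPKM for the 9 receptor genes in the 3 deposited comparisons, with bars of 1 standard error implied by the deposited statistic, red where the gene was called higher, black where it was tested and not called, and open grey where the test failed or was not run. Red points are 3 in the left panel, 0 in the middle panel and 5 in the right panel.

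In the maturing control against the proliferating control, no member was called. The authors' deposited table tested 5 members and called 0, and over all genes it called 1.75% of 11298, 0.584% higher and 1.17% lower. Unadjusted p was under 0.05 for 2 of the 5, with no share of all tested genes computed at that threshold. These were Csf2rb, with -0.88 on the log2 scale, an unadjusted p of 0.0161 and q = 0.167 in the authors' deposited table, and Csf2rb2, with the same rounded values there. The Csf2rb level in the maturing control was 54.3% of that in the proliferating control. A lower value in the maturing control was seen for 8 of the 9 members, and a higher one for Csf2ra, at a log2 ratio of 0.45 and with no call in the authors' deposited table. The 8 include Il3ra, Il6st and Flt3, which were not tested here and lay below 0.1 FPKM in both control libraries. Flt3 is not taken as different between libraries. The median log2 ratio of FPKM + 1 over the 9 members was -0.08, beside 0.01 over all 9611 genes. By size, Kit was the 1 member past 1, beside 1.74% of 9191 genes, 0.544% higher and 1.20% lower. This comparison and that of the knockdown share the proliferating control library, so opposite signs of a gene in the pair are not independent of each other.

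The remaining deposited comparison set the proliferating knockdown against the maturing control, which differ in both hairpin and medium, so their effects cannot be told apart in it. In the table used here its rows run in alphabetical order and stop at Slc2a13. Its counts and shares of calls thus leave out the genes named later, the STAT and Socs genes of the lists among them. Sizes and medians were taken from the FPKM values in the other comparisons, so they include those genes. The authors' deposited table called 5 of 6 tested members higher in the knockdown, beside 11.6% of 9241 genes called, 7.22% higher and 4.38% lower. Csf2rb had a log2 ratio of 2.71 (q = 6.85e-12) in the authors' deposited table, Csf2rb2 2.78 and 1.67e-12, and Il3ra 3.84 and 0.000381. Ifngr1, at a log2 ratio of 1.85 (q = 0.0121), and Csf1r, with 1.79 and 0.0164, were called in the authors' deposited table here alone, and the difference between comparisons was not tested. Csf2ra was not called, at a log2 ratio of 0.70 (q = 0.897) in the authors' deposited table. By size, 3 members (Kit, Csf2rb and Csf2rb2) were past 1, beside 9.29% of 9536 genes (5.76% higher and 3.53% lower), and the median over the 9 members was 0.58, beside -0.06 over all 9611 genes.

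Partners of the members and receptors of Kit's class (11 genes) held 4 genes called higher and 0 lower of 6 tested for the knockdown against the proliferating control in the authors' deposited table. Beside Il5ra these were Il6ra, the interleukin 6 binding chain that needs Il6st to signal, Pdgfra and Il27ra. None of these 4 was tested for the maturing control against the proliferating control. They thus entered the tested set of either knockdown comparison through their knockdown level. The count is for that reason not read against the 5.81% of all tested genes called higher. Il6ra was at 1.33 FPKM in the knockdown, 0.0184 FPKM in the maturing control and 0.00717 FPKM in the proliferating control. Pdgfra, a kinase receptor of Kit's class, was at 0.207 FPKM in the knockdown, 0.00460 FPKM in the maturing control and 0.00886 FPKM in the proliferating control. Il27ra, the interleukin 27 binding chain that also pairs with Il6st, was at 0.333 FPKM in the knockdown, 0.0193 FPKM in the maturing control and listed at 0 in the proliferating control. For the maturing control, 0 of 2 tested were called in the authors' deposited table. The other partners of Il6st were also low, with Lifr at 0.0573 FPKM in the knockdown, 0.0174 FPKM in the maturing control and 0.0584 FPKM in the proliferating control. Osmr was listed at 0 in the knockdown and the maturing control and at 0.00473 FPKM in the proliferating control.

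**Figure D4:**
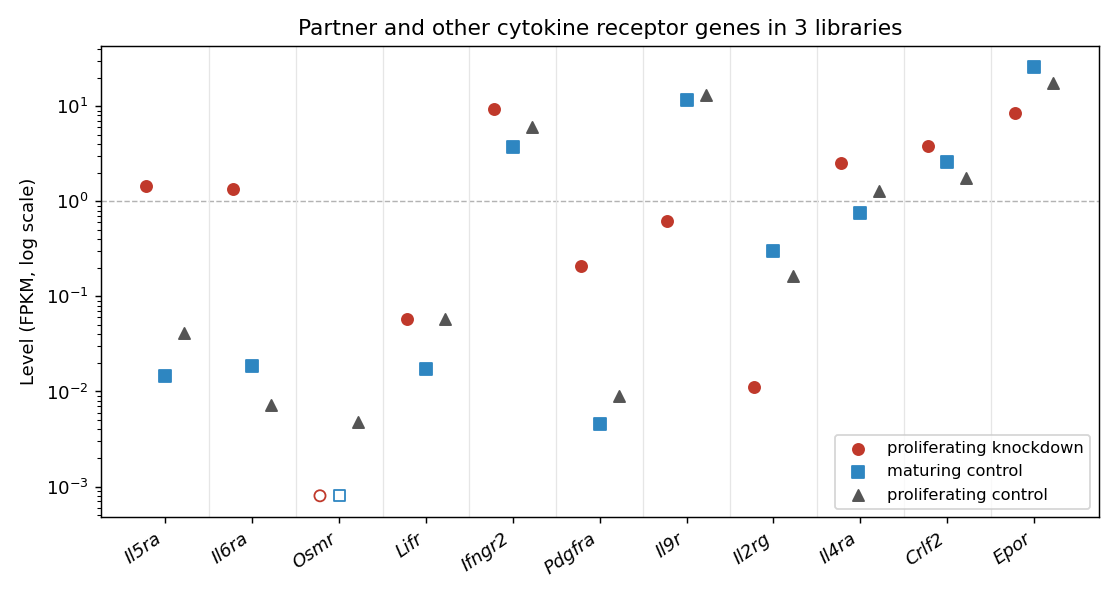
FPKM on a log axis for partner chains and other cytokine receptors in the proliferating knockdown, the maturing control and the proliferating control, 1 point per library, with open symbols at the bottom for values listed at 0 and a dashed line at 1 FPKM. Il5ra, Il6ra and Pdgfra have their highest point in the knockdown, and Il9r, Il2rg and Epor their lowest.

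Of 28 other cytokine and chemokine receptors, the authors' deposited table tested 15 for the knockdown against the proliferating control. Beside shares of 5.81% higher and 3.24% lower over all tested genes, it gave 1 higher and 3 lower calls. The 1 called higher was the interleukin 33 receptor Il1rl1, at 50.5 FPKM in the knockdown, 4.19 FPKM in the maturing control and 16.7 FPKM in the proliferating control. For the maturing control against the proliferating control it was also the 1 called lower of 13 tested in the authors' deposited table. Over all genes tested in that comparison, 1.17% were called lower. Il1rl1 is among the mast cell markers above. Il9r, which binds interleukin 9, was at 0.623 FPKM in the knockdown, 11.6 FPKM in the maturing control and 13.2 FPKM in the proliferating control. Il2rg, the common gamma chain with which Il9r pairs, was at 0.0110 FPKM in the knockdown, 0.304 FPKM in the maturing control and 0.166 FPKM in the proliferating control. The chemokine receptor Cxcr4 was listed at 0 in the knockdown and stood at 1.43 FPKM in the maturing control and 2.18 FPKM in the proliferating control. These 3 were the genes called lower in the authors' deposited table. Epor was at 8.58 FPKM in the knockdown, 25.6 FPKM in the maturing control and 17.6 FPKM in the proliferating control, and the authors' deposited table called it lower only for the knockdown against the maturing control, at a log2 ratio of -1.58 (q = 0.00984).

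Ligands of the members were mostly at the bottom of the scale. Of 14 ligand genes, the authors' deposited table tested 5 for the knockdown against the proliferating control and called Osm and Csf1 higher and 0 lower. Neither Osm nor Csf1 was tested between the control libraries, so both entered the tested set through their knockdown level. Their count is not read against the 5.81% of all tested genes called higher. Osm, a ligand of the receptors built on Il6st, reached 4.61 FPKM in the knockdown, had 0.0301 FPKM in the maturing control and was listed at 0 in the proliferating control. Csf1, the ligand of Csf1r, had 0.272 FPKM in the knockdown, 0.00337 FPKM in the maturing control and was listed at 0 in the proliferating control. Flt3l, the ligand of Flt3, was between 6.77 and 9.43 FPKM in the 3 libraries, with no call in the authors' deposited table. For the maturing control, 1 of 2 tested ligands had a call as lower, Lif, at 0.0478 FPKM in the maturing control and 0.229 FPKM in the proliferating control, in the authors' deposited table. In that comparison 1.17% of all tested genes were called lower. Kitl, the stem cell factor gene, was at or below 0.00465 FPKM, and Il3 and Ifng were listed at 0 in all 3 libraries.

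Genes that act behind the receptors were counted beside the 9.05% of all tested genes that were called in the knockdown against the proliferating control. Of 9 tested Janus kinase and STAT genes, the authors' deposited table gave 1 higher and 0 lower calls for the knockdown against the proliferating control. This was Jak3, which binds the common gamma chain, at 2.79 FPKM in the knockdown, 1.38 FPKM in the maturing control and 0.730 FPKM in the proliferating control. Jak2, the kinase bound to the shared beta chain, was at 6.26 FPKM in the knockdown, 5.45 FPKM in the maturing control and 5.36 FPKM in the proliferating control, with no call. Of 18 tested adaptors and kinases near the receptors, 1 had a call as higher and 0 as lower in the authors' deposited table. The adaptor Gab1 was the gene called, at 1.61 FPKM in the knockdown, 0.00348 FPKM in the maturing control and 0.0136 FPKM in the proliferating control. Gab1 was not tested between the control libraries, so it entered the tested set of either knockdown comparison through its knockdown level. Negative regulators (16 tested) and interferon-gamma targets (14 tested) held 0 calls in either direction for the knockdown against the proliferating control in the authors' deposited table. Their median log2 ratios of FPKM + 1 were 0.12 over 15 genes and 0.41 over 11 genes at 1 FPKM or more.

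In the maturing control against the proliferating control, the tyrosine kinase Lyn, which acts near Kit and the beta chain, was called lower in the authors' deposited table. It was at 3.94 FPKM in the maturing control, against 10.9 FPKM in the proliferating control, at a log2 ratio of -1.46 (q = 0.0245) in the authors' deposited table. Of 18 tested negative regulators, 2 had a call as higher and 0 as lower in the authors' deposited table. These were Cish, at 14.8 FPKM in the maturing control and 4.80 FPKM in the proliferating control, and Socs3, at 0.183 FPKM in the maturing control and 0.0286 FPKM in the proliferating control. Both encode inhibitors that STAT proteins induce. Socs3 was not tested for the knockdown against the proliferating control, so it entered this tested set through its maturing control level. No Janus kinase or STAT gene of 9 tested, and no interferon-gamma target of 14 tested, was called in this comparison in the authors' deposited table.

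Transcription factors linked to Kit moved in both directions. Of 13 tested, the authors' deposited table gave 3 higher and 1 lower calls for the knockdown against the proliferating control. Those called higher were Gata2, Erg and Mitf, and the 1 called lower was Zfpm1, the cofactor of GATA proteins. Gata2, a known activator of Kit in progenitors and mast cells, was at 129 FPKM in the knockdown, 29.6 FPKM in the maturing control and 54.9 FPKM in the proliferating control. Its log2 ratio for the knockdown against the proliferating control was 1.24 (q = 0.0156) in the authors' deposited table. Zfpm1 was at 5.70 FPKM in the knockdown, 38.6 FPKM in the maturing control and 22.7 FPKM in the proliferating control. Mitf, a mast cell regulator of Kit and also one of the mast cell markers, was at 1.09 FPKM in the knockdown, 0.184 FPKM in the maturing control and 0.135 FPKM in the proliferating control. Erg, an ETS factor of stem and megakaryocyte cells, was at 6.51 FPKM in the knockdown, 0.722 FPKM in the maturing control and 1.77 FPKM in the proliferating control. For the maturing control against the proliferating control, 0 of 13 had a call as higher and 1 as lower in the authors' deposited table, the progenitor factor Myb, at 18.9 FPKM in the maturing control and 42.2 FPKM in the proliferating control. In that comparison 0.584% of all tested genes were called higher and 1.17% lower. Gata1, which takes the place of Gata2 on Kit as red cells mature, was at 61.1 FPKM in the knockdown, 65.5 FPKM in the maturing control and 52.8 FPKM in the proliferating control, with no call in the authors' deposited table.

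For the knockdown against the maturing control, the authors' deposited table gave 4 higher and 0 lower calls among 6 tested partners and kinases of Kit's class, and 3 and 3 among 13 tested other receptors. Over all 9241 genes tested there, 7.22% were called higher and 4.38% lower. The 4 partners and kinases called, and Il18r1 among the other receptors, were not tested between the control libraries. They entered the tested set through their knockdown level, so the counts are not read against those shares. Il9r is not among the 13, because its test failed in this comparison. Among the other receptors called higher was the interleukin 4 receptor gene Il4ra, at 2.53 FPKM in knockdown cells, against 0.753 FPKM in the maturing control. Of 16 tested adaptors and kinases 2 had a call as higher (Gab1 and Lyn) and 2 as lower, among them the adaptor Shc1, at 9.67 FPKM in knockdown cells, against 24.6 FPKM in the maturing control, per the authors' deposited table. Transcription factors had 5 higher calls and 1 lower call of 11 tested in the authors' deposited table, the lower one being Ldb1, which bridges GATA complexes, with 14.8 FPKM in knockdown cells, against 39.3 FPKM in the maturing control. Negative regulators and interferon-gamma targets (10 tested of each) and Janus kinase and STAT genes (3 tested) held 0 calls there, and members of these lists without a row in this comparison were not tested.

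Because Gata2 was called higher beside these receptors, the 250 bases before the start of members were searched for the GATA motif. It was spelled AGATAA or with G as last base, and likewise TGATAA or with G as last base, on either strand. RefSeq promoters (GRCm38.p6) were matched for 7 members. Csf2rb and Csf1r had none and were not searched. A match was found for 2 of the 7, Csf2rb2 and Il3ra. Of all 27025 genes with such a promoter, 29.7% held a match, a share close to 2 of 7. The sequences of Csf2rb2 and Il3ra, and that of Kit, are shown 5′ to 3′ on the gene's strand, with motif matches in capitals.
Csf2rb2, chr15:78305722-78305971, minus strand: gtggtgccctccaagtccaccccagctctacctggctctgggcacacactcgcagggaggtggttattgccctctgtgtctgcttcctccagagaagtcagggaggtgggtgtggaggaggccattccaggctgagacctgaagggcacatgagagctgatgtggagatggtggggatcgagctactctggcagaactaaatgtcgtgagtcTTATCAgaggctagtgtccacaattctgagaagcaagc
Il3ra, chr14:14346245-14346494, plus strand: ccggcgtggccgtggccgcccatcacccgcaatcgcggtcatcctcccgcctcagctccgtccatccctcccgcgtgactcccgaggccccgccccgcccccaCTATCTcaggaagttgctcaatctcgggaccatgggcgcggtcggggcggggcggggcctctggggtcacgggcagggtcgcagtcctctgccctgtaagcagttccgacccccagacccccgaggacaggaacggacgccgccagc
Kit, chr5:75574737-75574986, plus strand: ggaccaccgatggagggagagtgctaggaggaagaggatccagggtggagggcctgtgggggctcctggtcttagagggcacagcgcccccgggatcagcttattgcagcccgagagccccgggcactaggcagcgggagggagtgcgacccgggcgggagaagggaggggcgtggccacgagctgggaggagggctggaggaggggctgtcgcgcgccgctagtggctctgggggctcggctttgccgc
The match begins 38 bases before the start in Csf2rb2 and 147 bases before it in Il3ra, both on the opposite strand. For Kit no match lies in this window. A match describes the sequence and is no evidence of binding.

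Genes most like Kit and Csf2rb across the 3 libraries were sought among 5098 protein-coding genes at 5 FPKM or more in a library, by the distance between their pairs of log2 ratios of FPKM + 1 against the proliferating control. For Kit the nearest were Anxa2 at a distance of 0.04, Pkd1l3 at 0.08 and Tfcp2 at 0.12. Anxa2, which encodes a membrane-binding annexin, was at 12.5 FPKM in the knockdown, 1.84 FPKM in the maturing control and 5.39 FPKM in the proliferating control. For Csf2rb they were Csf2rb2 at 0.07, Tmem173 at 0.18 and Adora3 at 0.24. Tmem173, the STING adaptor of DNA sensing, was at 8.75 FPKM in the knockdown, 0.567 FPKM in the maturing control and 2.08 FPKM in the proliferating control. Adora3, an adenosine receptor, was at 36.8 FPKM in the knockdown, 4.27 FPKM in the maturing control and 8.14 FPKM in the proliferating control. The likeness rests on 3 libraries that also share a control.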

How the data were processed

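Per the labels' protocols, RNA extraction and library preparation used kits from Qiagen and Bioo. The submitters' processing notes name FastQC 0.10.1, Cufflinks 2.0.2, Cuffdiff and the mm9 genome. The aligner and the annotation were not given in the sources used here. What the authors deposited is 1 table of comparisons with 65535 rows, laid out as Cuffdiff writes it. Per the file headers it holds 2 values per gene, read as FPKM. It also holds, per the file headers, a log2 ratio, a statistic (a score), a p-value and a q-value. The comparison of the knockdown with the maturing control covers the first 19067 of 23234 genes, in alphabetical order, in the table used here. Libraries were matched to samples by name, and the knockdown name by its target and the number in its title. Genes marked as called had a deposited q-value of at most 0.05. Standard errors are the deposited log2 ratio over the statistic. In 7152 of 20599 loci the end minus the start equalled the RefSeq gene length, and in 452 it was 1 base short, so starts were read as counted from 0 and 1 was added.

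No test of differences was run here, because each group had 1 library. FPKM gives no absolute depth, so no counting interval was computed. The commonest ratio among genes below 0.03 FPKM gave relative depths, with the proliferating control as 1, of 1.44 (knockdown, 66 genes at that ratio) and 1.54 (maturing control, 32 genes). Sizes are log2 ratios of FPKM + 1, which understate changes of low genes. The 15 lists, that of the 9 members included (210 of 211 entries matched in all), were chosen with earlier results of these data known. All members are named. From lists, called genes at 1 FPKM or more were taken by size, up to 4 per list. The 3 nearest genes follow for Kit and Csf2rb. Pdgfra, Il27ra, Il2rg, Csf1, Lif, Itgam, Socs3, Cd68, Gzmb, Hdc, Cpa3 and genes given without a call were chosen after their values were seen. The count by size was tested on simulated data. Python 3.11.15, numpy 2.4.6, pandas 2.3.3, scipy 1.17.1, matplotlib 3.10.9 and Biopython 1.88 were used.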

Additional observations from a re-analysis of the deposited data

How the results depend on the processing

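Counts of members called for the knockdown against the proliferating control stayed within 1.5 times the reported 3 under every alternative, and those for the maturing control stayed at 0. For the knockdown against the maturing control the 5 calls became 3 at a q under 0.01, 2 when a size of 1 was also asked for, and 3 among members at 1 FPKM or more. Counts by size rested on the pseudocount. With 0.1 in place of 1 they were 7 and 6 instead of 3 for the knockdown against the proliferating and the maturing control, and on the TPM scale, where 1 is a smaller part of each value, also 7 and 6. With 5 in place of 1, the ratio of Kit for the knockdown against the proliferating control fell to 0.989, below the size of 1. Kit has no test, so its place in that count rests on the pseudocount. In each comparison all 9 members kept the sign of their ratio under 6 alternatives (2 pseudocounts and 4 scalings). A pseudocount cannot change a sign, so only the 4 scalings could have done so. The median of genes at 5 FPKM or more moved by at most 0.11 under a scaling, that of an equal upper quartile. Medians of the other lists moved past their tolerance (the mean of 0.1 and the list's median standard error) in 50 of 285 recomputations. No paired analysis was possible because each group has 1 library, and for that reason no replicate could be left out. Values below 0.1 FPKM rest on few fragments, which limits what can be said of Il3ra in the controls, Il6st and Flt3.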

Other observations

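The failed test of Kit was not isolated. The authors' deposited table marks 80 genes as failed for the knockdown against the proliferating control, 15 of them at 20 FPKM or more in a library. In all 3 comparisons 29 genes failed. Of the 52 genes that failed in both comparisons with the proliferating control, none stood above Kit in the proliferating knockdown or in the proliferating control, and 5 did in the maturing control. Stat3, the transcription factor that acts behind Il6st, also failed in both, at 14.8 FPKM in the knockdown, 7.29 FPKM in the maturing control and 8.72 FPKM in the proliferating control. Likewise failed were the adaptor Gab2, at 12.6 FPKM in the knockdown, 7.60 FPKM in the maturing control and 10.1 FPKM in the proliferating control, and the phosphatase gene Inpp5d, at 18.7 FPKM in the knockdown, 13.9 FPKM in the maturing control and 16.3 FPKM in the proliferating control. These 3 genes were chosen after their values were seen.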
